A study of Mus musculus with 6 samples.

Results

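Respiratory complex I is described here through its genes in 4T1, a mouse mammary carcinoma line that stands in for the triple-negative form of breast cancer. The deposited identifiers were given symbols from GENCODE M21, and protein-coding genes whose symbol starts with Nduf or mt-Nd were taken if their mean over the 6 libraries was at least 1 FPKM (sequenced fragments per length of transcript and per mapped fragments of the library). Of 53 such genes, 52 passed, out of 28418 genes in the tables. They are 45 of 46 nuclear Nduf genes and all 7 mitochondrially encoded mt-Nd genes. The gene left out is Ndufa4l2, a paralog of Ndufa4, listed at 0.16, 0.00 and 0.07 FPKM at 0 nM and at 0.00, 0.11 and 0.06 FPKM at 100 nM. The member nearest above the limit is Ndufb2, an accessory subunit, with a mean of 1.57 FPKM.

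The 3 control libraries carry the label 0 nM PFOS and the other 3 the label 100 nM PFOS. PFOS, perfluorooctane sulfonate, is a persistent fluorinated surfactant. Both sets come from the same unmodified line, held for 35 passages, and poly(A) RNA was sequenced. The labels do not state whether the 3 libraries at a dose are separate cultures, so the p-values here describe only the spread among these libraries, which could be technical. One line of cells stands for each dose, and a difference between cultures that drifted apart cannot be told apart from a difference due to the dose.

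Complex I, or NADH:ubiquinone oxidoreductase, takes electrons from NADH, passes them through a flavin and a chain of iron-sulfur clusters to ubiquinone, and pumps protons across the inner mitochondrial membrane. Its core subunits are encoded partly in the nucleus and partly in mitochondrial DNA, and many nuclear accessory subunits surround the core. The peripheral arm holds the N module, which binds NADH, and the Q module, which binds ubiquinone. The membrane arm is assembled from modules named after the ND1, ND2, ND4 and ND5 proteins, with the help of assembly factors that are not part of the finished enzyme. The mitochondrial genes are transcribed as long polycistronic precursors that are then cut into shorter RNAs, so the mt-Nd genes are not independent of each other.

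The sums of FPKM per library lay between 306716 and 309381, and sequencing depth is unknown because the tables hold no counts. All 8 epithelial markers had a mean of at least 1 FPKM, and they summed to 731 to 732 FPKM at 0 nM and 763 to 821 FPKM at 100 nM. Of the 8, 3 were called higher, against 1.69% of all genes tested. The groups did not overlap for 5, all 5 higher at 100 nM, against 13.7% of all genes tested. Of the log2 differences 6 were above and 2 below 0, with a median of 0.17. Of 13 leukocyte markers in the tables, 8 were below 1 FPKM in each of the 5 libraries other than replicate 3 at 100 nM. The leukocyte list summed to 143 to 182 FPKM at 0 nM and 142 to 310 FPKM at 100 nM, mostly from the lysozyme gene Lyz2. The lymphocyte genes Cd3e and Nkg7 were listed at 0 in the other 5 libraries and at 0.66 and 2.58 FPKM in replicate 3 at 100 nM. Gzmb was at 14.94 FPKM in that library and at no more than 0.05 FPKM in the others. Cd14 was at 65.16 FPKM there, against 8.41 to 24.14 FPKM. All 13 leukocyte markers but Cd79a and Lyz2 were highest in that library. In bulk RNA, fewer cells of a type and less RNA per cell cannot be told apart. What part these markers have in the values below was not tested, and the calls and medians are also given without that library.

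The complex I transcripts changed little between the doses. With limma on log2(FPKM + 1), 1 of 45 nuclear members rose, Ndufb10, and 1 fell, Ndufb4. Of the 7 mitochondrial members none rose and 1 fell, mt-Nd1. Over all 11741 genes tested, 4.15% passed the same threshold of a Benjamini-Hochberg adjusted p under 0.05 (1.69% higher and 2.46% lower at 100 nM), and 4.37% did with protein-coding genes only. The 3 changed members moved by 9.43%, by -16.7% and by -10.2% of their 0 nM mean. None of the 3 calls held without replicate 3 at 100 nM, nor without any other single library.

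The median fitted difference, 100 nM minus 0 nM on the log2(FPKM + 1) scale, was 0.01 over the nuclear members, with a range of -0.24 to 0.14. It was -0.01 over the mt-Nd members, with a range of -0.16 to 0.02. The median over all genes tested was 0.01. Without replicate 3 at 100 nM the medians were 0.0046 for the nuclear and -0.0117 for the mt-Nd members. The groups did not overlap for 9 of 45 nuclear members (20.0%) and for 2 of 7 mt-Nd members (28.6%), against 26.9% of all genes tested. At an unadjusted p under 0.05 there were 9 nuclear members and 2 mt-Nd members, against 20.7% of all genes. These shares lie near the background. The data also bound the size of the differences: for 38 of 45 nuclear members and for all 7 mt-Nd members the 95% interval lay within 0.26 of 0 on the log2(FPKM + 1) scale, which is 1.2-fold of FPKM + 1 and more than that in FPKM for low genes such as Ndufb2. The widest nuclear intervals reached -0.40 and 0.27.

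**Figure D1:**
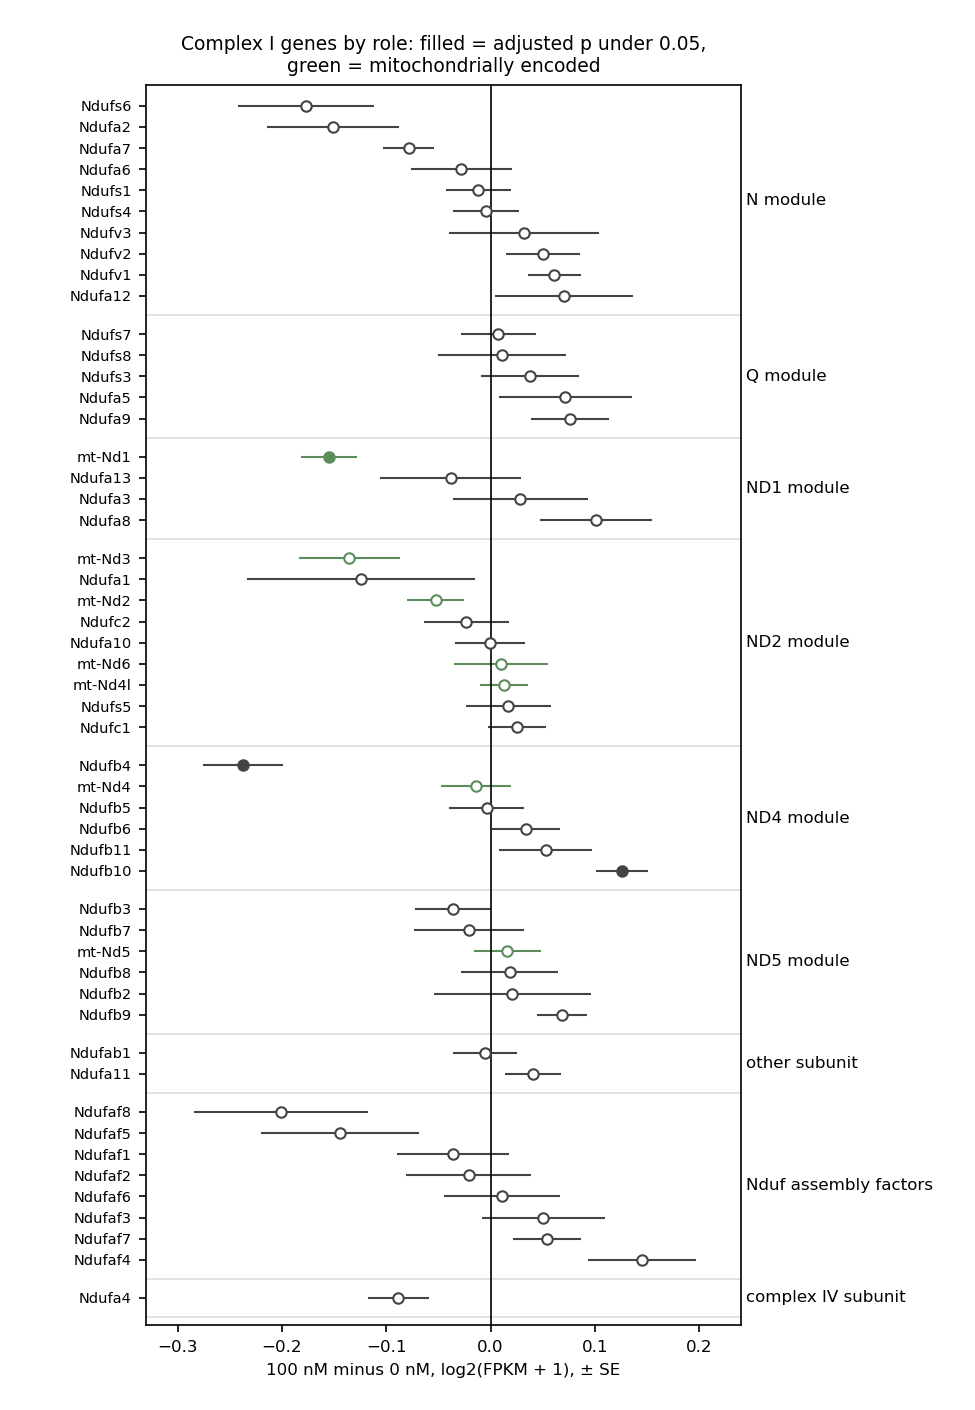
Fitted difference of the members but 1, 100 nM minus 0 nM on the log2(FPKM + 1) scale, with its SE as a bar, grouped by role (n = 3 libraries a group). Most members sit within 0.1 of 0, and the filled points are the 3 members that passed the test: Ndufb4 at -0.24, mt-Nd1 at -0.16 and Ndufb10 at 0.13.

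The mitochondrial members stood far above the nuclear ones. FPKM is a value per transcript length, so levels of different genes can be compared, but only roughly. Whether the length used is that of the transcript present was not tested. Nor was it tested whether poly(A) selection took each RNA alike. Mean levels over the 6 libraries ran from 204 FPKM for mt-Nd3 to 3005 FPKM for mt-Nd1. As listed, the order below mt-Nd1 was mt-Nd2 at 1704, mt-Nd4 at 1309.5, mt-Nd5 at 1275, mt-Nd4l at 950.2 and mt-Nd6 at 862 FPKM, an order that changes when near copies are added, as given further on. As listed, the neighbours mt-Nd4 and mt-Nd5 were close at 0 nM, with 1316 ± 57.8 and 1268 ± 38.9 FPKM (SD, n = 3). In each 0 nM library mt-Nd4 was the higher. With its near copy added, mt-Nd4 stood well above mt-Nd5. The nuclear members ran from 1.57 FPKM for Ndufb2 over a median of 16.0 FPKM to 175 FPKM for Ndufb9, a subunit of the ND5 module. Replicates were close: the median coefficient of variation was 3.11% and 2.39% for the mt-Nd members at 0 and 100 nM, 3.71% and 4.03% for the nuclear members, and 3.94% and 4.33% for all genes tested.

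**Figure D2:**
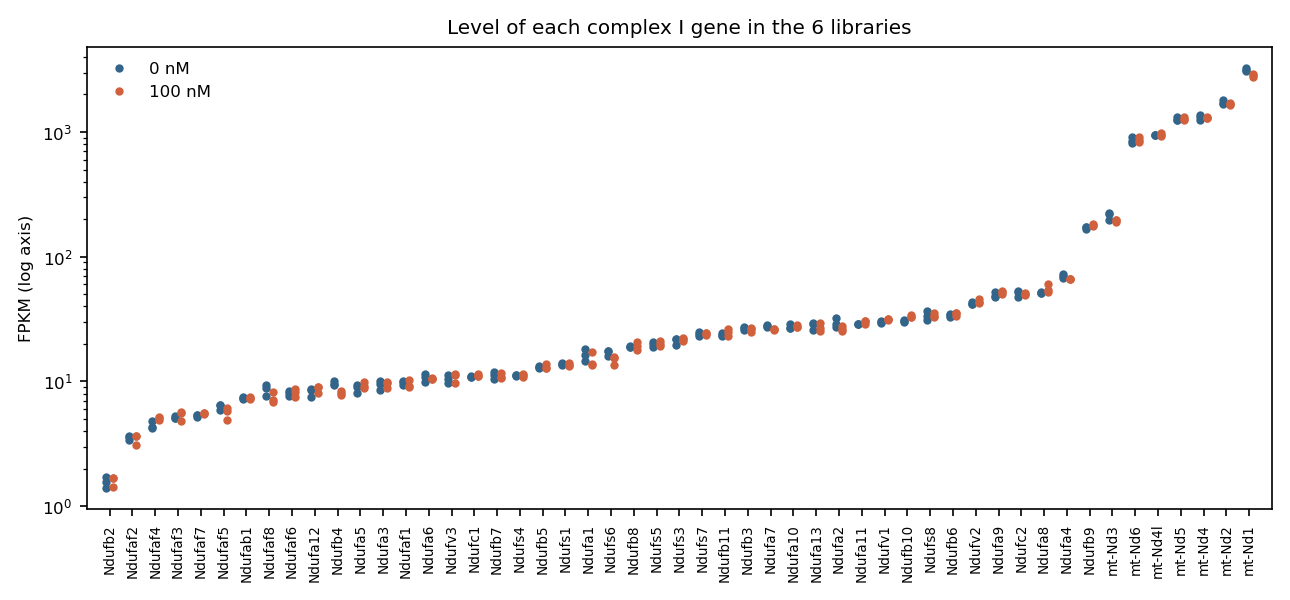
FPKM (log axis) of the members but 1 in each of the 6 libraries, ordered by mean level, with 0 nM in blue and 100 nM in red. The mt-Nd genes take the right end, up to 3005 FPKM for mt-Nd1, and the low end is Ndufb2 at 1.57 FPKM.

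mt-Nd1 encodes the core subunit at the junction of the arms, next to the ubiquinone site. The gene lies on the plus strand of the mitochondrial genome (GRCm38, bases 2751 to 3707) and none of its 31-base words occur in transcripts of other annotated genes. Its level was 3137, 3261 and 3100.4 FPKM at 0 nM and 2895, 2766 and 2869 FPKM at 100 nM. Every 100 nM library was below every 0 nM library. The mean fell by 10.2%, from 3166 ± 84.1 to 2843 ± 67.9 FPKM (SD, n = 3), a log2 difference of -0.16 ± 0.03 (SE, 95% interval -0.22 to -0.09; limma adjusted p = 0.0342). Without each library in turn the difference stayed between -0.17 and -0.13, and the adjusted p was 0.0631 to 0.0995.

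mt-Nd2, a proton-pumping core subunit of the ND2 module, stood at 1719, 1795 and 1690.3 FPKM at 0 nM and at 1708, 1642 and 1667 FPKM at 100 nM. These groups overlapped, and the difference of -0.05 ± 0.03 (SE) did not pass (limma adjusted p = 0.337). mt-Nd3, a small core subunit, stood at 198, 226 and 219 FPKM at 0 nM and at 197, 196 and 191 FPKM at 100 nM. The doses did not overlap, but the lowest 0 nM library was within 2 FPKM of the highest 100 nM library. Its difference was -0.14 ± 0.05 (SE, limma adjusted p = 0.180), and without replicate 1 at 0 nM the gene passed (adjusted p = 0.0441).

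mt-Nd4l, mt-Nd4 and mt-Nd5 encode further membrane-arm core subunits, the last and mt-Nd4 being proton-pumping. mt-Nd4l and mt-Nd4 overlap by 7 bases on the same strand, so they are not to be read as separate RNAs. mt-Nd4l was at 944, 943 and 951 FPKM at 0 nM and at 985, 943 and 935 FPKM at 100 nM. mt-Nd4 was at 1253, 1366 and 1329.9 FPKM at 0 nM and at 1325, 1284 and 1299.6 FPKM at 100 nM. mt-Nd5 was at 1239, 1312 and 1253 FPKM at 0 nM and at 1330.25, 1269 and 1248 FPKM at 100 nM. In all 3 the 2 groups overlapped, and the limma adjusted p was 0.811, 0.860 and 0.826.

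mt-Nd6 is the only mt-Nd gene on the minus strand, and it overlaps mt-Nd5 tail to tail by 14 bases. Its level was 823, 905 and 848 FPKM at 0 nM and 905, 864 and 825 FPKM at 100 nM, with wide overlap (difference 0.01 ± 0.05 SE, limma adjusted p = 0.929). Whether the quantification used strand is not given in the sources used here.

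Some mt-Nd reads cannot be placed with certainty, because a stretch of chromosome 1 holds near copies of mitochondrial genes. mt-Nd3 shared 98.1% of its 31-base words with other genes, above all with the pseudogene Gm28438. The 2 transcripts differ at 1 of 345 aligned positions, base 3 counted from the transcript start. Their first 41 bases are shown so that the single difference, in capitals, can be seen.
mt-Nd3: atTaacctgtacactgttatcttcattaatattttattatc
Gm28438: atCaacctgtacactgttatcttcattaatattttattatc
Gm28438 was listed at 199, 231 and 212 FPKM at 0 nM and at 198, 197 and 192 FPKM at 100 nM, close to mt-Nd3 in every library. The values of mt-Nd3 are therefore uncertain: reads may have been split between the gene and its copy. With the copy added, mt-Nd3 differed by -0.13 and was not called (limma adjusted p = 0.198). mt-Nd4l shared 98.9% of its words, with Gm10222 listed at 957 and 966 FPKM on average, and mt-Nd4 shared 62.8%, with Gm28439 at 932 and 929.9 FPKM, so their levels are uncertain in the same way. With the copies added, mt-Nd4 came to 1822 to 1982 FPKM over the libraries and mt-Nd4l to 1867 to 1976 FPKM, both above mt-Nd2, and mt-Nd3 came to 382 to 455 FPKM, still the lowest. mt-Nd5 shared 16.8% and mt-Nd6 shared 7.36%, with main partners listed at no more than 0.21 FPKM.

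Along the mitochondrial map the protein-coding genes formed runs. Genes are counted here and not RNA molecules: mt-Atp8 overlaps mt-Atp6 on the same strand, as mt-Nd4l does mt-Nd4. From mt-Nd1 to mt-Nd3 all 8 genes, those of complexes IV and V included, had a lower mean at 100 nM. Their log2 differences were -0.16 to -0.05, with a median of -0.10. From mt-Nd4l to mt-Cytb, 1 of 5 had a lower and 4 a higher mean, with differences of -0.01 to 0.02 and a median of 0.01. The median level of the first run was 98.4%, 103.2% and 98.4% of the 0 nM mean in the 0 nM libraries and 93.6%, 91.7% and 94.2% in the 100 nM libraries. In the second run it was 97.7%, 103.5% and 98.8% at 0 nM and 104.1%, 100.1% and 98.7% at 100 nM. These medians did not overlap between the groups in the first run and did in the second. Within the first run the single genes mt-Nd2, mt-Atp8 and mt-Atp6 did overlap. The boundary was chosen after the values were seen, so the separation follows in part from that choice and no test is given. Over 18 alternative settings the median of the first run was -0.11 to -0.08 and that of the second -0.01 to 0.03. Shared words were counted only for the complex I genes. Whether reads of the other mitochondrial mRNAs in these runs were split with near copies was not tested, so their levels may be uncertain too.

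Ratios taken within a library do not depend on its scaling. mt-Nd1 over mt-Nd5 was 2.53, 2.49 and 2.47 at 0 nM and 2.18, 2.18 and 2.30 at 100 nM, and mt-Nd1 over mt-Nd2 was 1.82, 1.82 and 1.83 against 1.70, 1.68 and 1.72. Neither ratio overlapped between the groups. Both contain mt-Nd1, which itself did not overlap, so they are not separate evidence. Of the 6 other mitochondrial mRNAs, 1 fell, mt-Co1, which encodes a catalytic subunit of complex IV, from 7114 ± 82.0 to 6617 ± 100.5 FPKM (SD, n = 3; limma adjusted p = 0.0346). Whether reads of mt-Co1 were split with a near copy was not tested.

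**Figure D3:**
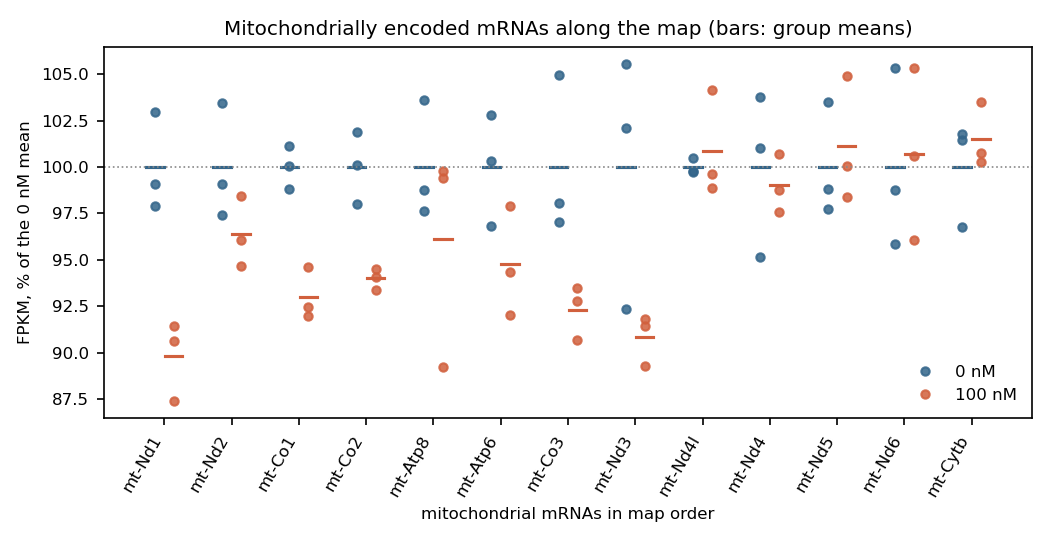
FPKM of the 13 mitochondrial protein-coding genes as a percent of each gene's 0 nM mean, in map order. Each library has a point, and bars are group means. The 100 nM means lie below 100% from mt-Nd1 to mt-Nd3 and within 1.5% of it from mt-Nd4l to mt-Cytb.

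The mt-Nd genes together held 9313, 9808 and 9391 FPKM at 0 nM and 9345, 8964 and 9035 FPKM at 100 nM. Divided by the summed nuclear members this gave 8.25, 8.79 and 8.49 at 0 nM and 8.41, 7.85 and 8.03 at 100 nM. The groups overlapped, with means of 8.51 ± 0.269 and 8.10 ± 0.287 (SD, n = 3). The ratio of the means was 0.951, and 0.933 to 0.967 without each library in turn.

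Ndufb10 encodes an accessory subunit of the ND4 module that lies on the intermembrane-space side. The gene is on the minus strand at chr17:24722060-24724478 (GRCm38). Its level was 29.7, 30.9 and 30.5 FPKM at 0 nM and 32.9, 32.9 and 33.9 FPKM at 100 nM. The lowest 100 nM library was above the highest 0 nM library. The mean rose by 9.43%, from 30.4 ± 0.596 to 33.2 ± 0.546 FPKM (SD, n = 3), a log2 difference of 0.13 ± 0.03 (SE, 95% interval 0.07 to 0.19; limma adjusted p = 0.0467). The adjusted p lay just under the threshold and was 0.10 to 0.136 without each library in turn. When each library was scaled to its total without mitochondrial genes it was 0.0531.

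Ndufb4 encodes another accessory subunit of the ND4 module, in the outer part of the membrane arm. The gene is on the minus strand at chr16:37647170-37654453 (GRCm38). Its level was 9.42, 10.11 and 9.60 FPKM at 0 nM and 8.35, 8.09 and 7.82 FPKM at 100 nM. Every 100 nM library was below every 0 nM library. The mean fell by 16.7%, from 9.71 ± 0.358 to 8.09 ± 0.265 FPKM (SD, n = 3), a log2 difference of -0.24 ± 0.04 (SE, 95% interval -0.33 to -0.14; limma adjusted p = 0.0277). Without each library in turn the adjusted p was 0.0606 to 0.0948.

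The 390-base coding sequence of Ndufb4 is identical at every position to that of Ndufb4c, a processed pseudogene at chr15:73809507-73809896. Reads from inside it cannot be assigned to one or the other. The first 90 bases are shown, with the start codon in capitals, as an example of a stretch held by both.
Ndufb4 and Ndufb4c: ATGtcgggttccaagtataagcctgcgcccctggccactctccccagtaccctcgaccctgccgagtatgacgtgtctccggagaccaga
Ndufb4c was listed at 18.4, 14.0 and 17.6 FPKM at 0 nM and at 13.4, 13.2 and 12.6 FPKM at 100 nM. The groups did not overlap, but the gene did not pass (difference -0.32 ± 0.09 SE, limma adjusted p = 0.125). With the 2 added in proportion to length, the level was 13.2, 13.0 and 13.2 FPKM at 0 nM and 11.1, 10.8 and 10.4 FPKM at 100 nM. The sum was called lower, by -0.26 (limma adjusted p = 0.00993). The spread at 0 nM was smaller for the sum than for either gene alone.

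**Figure D4:**
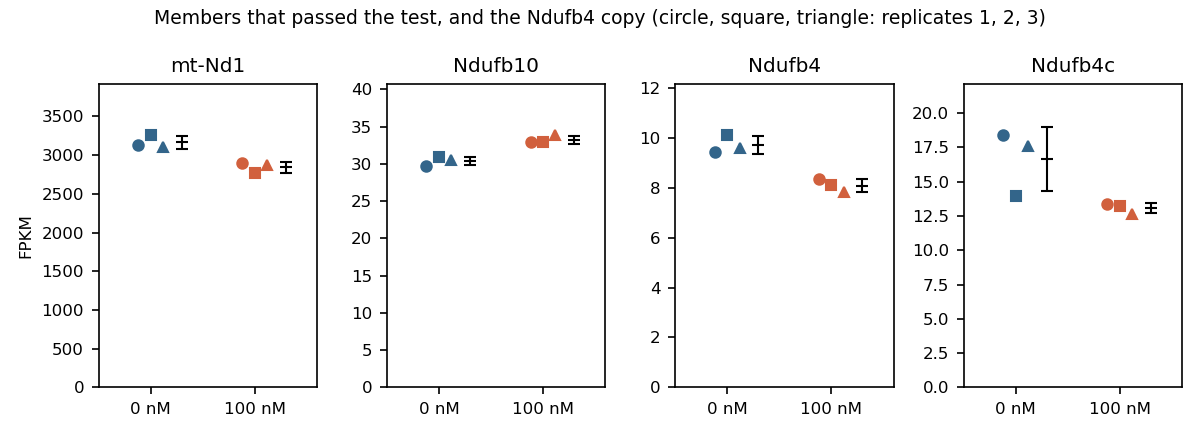
FPKM of mt-Nd1, Ndufb10, Ndufb4 and the pseudogene Ndufb4c in each library, with the group mean and SD beside the points; each axis starts at 0. In each panel the groups do not overlap, and in the Ndufb4c panel replicate 2 at 0 nM (14.0 FPKM) lies near the 100 nM libraries.

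Ndufb4 lies among genes that were lower at 100 nM. Of 14 other tested protein-coding genes within 1 Mb of its start, 13 had a lower mean, with a median difference of -0.29. Of the 14, 8 fell, against 2.46% of all genes tested. Among them are Gsk3b, a protein kinase gene (-0.31 ± 0.03 SE), and Pla1a, a phospholipase gene (-0.84 ± 0.05 SE). The stretch also holds Cox17, a copper chaperone for complex IV (-0.25 ± 0.08 SE), and Timmdc1, a complex I assembly factor (-0.12 ± 0.05 SE), neither of which passed. The difference of Ndufb4 lies inside the range of its neighbours. Around Ndufb10, 49 such genes had a median difference of 0.01, with 1 called higher and 1 called lower.

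**Figure D5:**
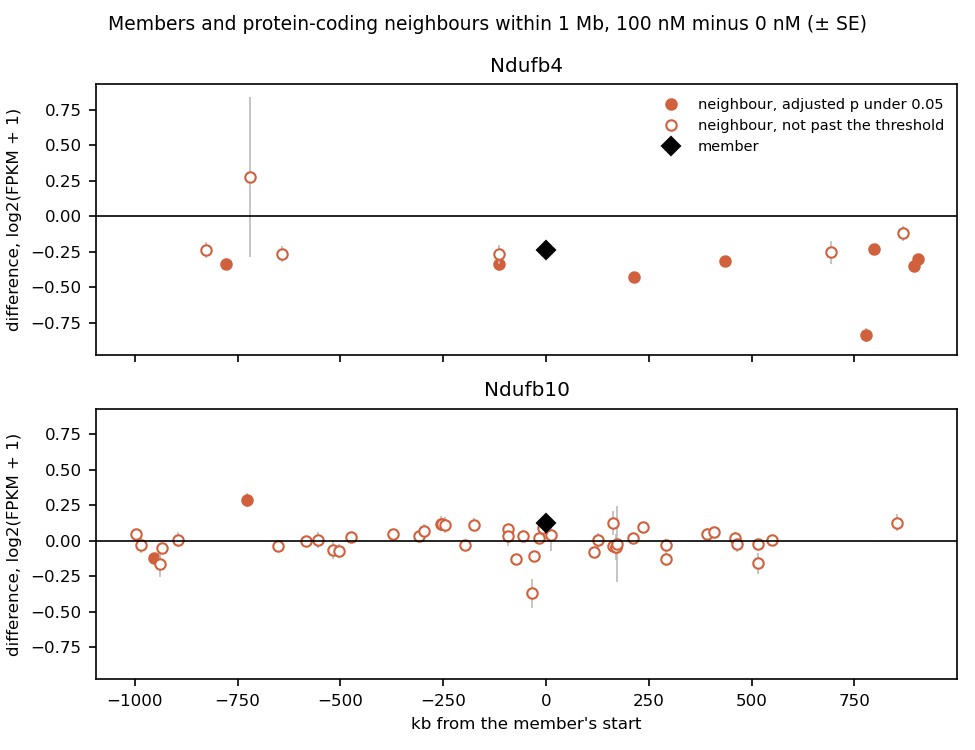
Fitted difference (log2(FPKM + 1), bars SE) of Ndufb4, Ndufb10 and the tested protein-coding genes within 1 Mb, by distance in kb from the member's start. Around Ndufb4, 13 of 14 neighbours lie below 0; around Ndufb10 they lie on both sides of 0.

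The N module had 0 of 10 members called, with 4 higher and 6 lower means and a median of -0.01. Ndufv1, which carries the NADH and flavin sites, was at 30.1, 30.7 and 29.3 FPKM at 0 nM and at 31.7, 31.4 and 31.1 FPKM at 100 nM. The groups were apart by a narrow gap and the gene did not pass (limma adjusted p = 0.239). Ndufv2, an iron-sulfur subunit, was at 41.6, 43.4 and 41.9 FPKM and at 43.3, 45.9 and 42.3 FPKM, with overlap (adjusted p = 0.485). Ndufs1, the largest core subunit, carries several clusters and was at 14.0, 13.8 and 13.5 FPKM against 13.5, 14.1 and 13.3 FPKM (adjusted p = 0.871).

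The lower end of the N module was set by accessory subunits. Ndufs6, a zinc-binding subunit added late in assembly, was at 15.9, 17.6 and 17.5 FPKM at 0 nM and at 13.6, 15.8 and 15.5 FPKM at 100 nM. The groups did not overlap, though only by a narrow gap, and the difference of -0.18 ± 0.07 (SE) did not pass (limma adjusted p = 0.195). Ndufa2 was at 32.2, 27.1 and 29.1 FPKM at 0 nM and at 25.4, 26.2 and 27.6 FPKM at 100 nM, with overlap (difference -0.15 ± 0.06 SE, adjusted p = 0.243). Ndufa7 did not overlap between groups (27.7 ± 0.390 and 26.2 ± 0.484 FPKM, SD, n = 3) and did not pass (adjusted p = 0.135).

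The Q module had 0 of 6 members called and 0 non-overlapping. All 6 means were higher at 100 nM, with differences of 0.01 to 0.08 and a median of 0.03, where 6175 of all 11741 genes tested had a higher mean. The sign was not stable: over 18 alternatives it turned in 4 for Ndufs7, 2 for Ndufs8 and 1 for Ndufs3. Ndufs3 was at 21.2 ± 1.24 and 21.7 ± 0.690 FPKM, Ndufs7 at 24.1 ± 0.942 and 24.2 ± 0.660 FPKM, and Ndufs8 at 33.7 ± 2.83 and 33.9 ± 1.33 FPKM (SD, n = 3). Ndufs7 and Ndufs8 carry the last iron-sulfur clusters of the chain, and in neither did the mean move by 1%. Ndufa9, an accessory subunit at the foot of the peripheral arm, was at 51.8, 47.4 and 48.6 FPKM and at 53.2, 50.6 and 52.1 FPKM (adjusted p = 0.308).

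Across the 7 nuclear core subunits, 0 were called, 6 had a higher and 1 a lower mean, and the median difference was 0.02. Ndufv1 was the only 1 of the 7 without overlap (14.3%, against 26.9% of all genes tested).

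In the membrane arm the nuclear members of the ND1, ND2 and ND5 modules had no calls among 3, 5 and 5 genes, with medians of 0.03, -0.00 and 0.02. Ndufa8 of the ND1 module was at 52.5, 51.1 and 51.4 FPKM at 0 nM and at 52.3, 60.6 and 53.9 FPKM at 100 nM. Its difference of 0.10 ± 0.05 (SE) rested largely on replicate 2 at 100 nM and did not pass (limma adjusted p = 0.344). Ndufb9 was at 175, 167 and 172 FPKM at 0 nM and at 179, 182 and 176 FPKM at 100 nM. No 100 nM library was as low as a 0 nM library, and the difference of 0.07 ± 0.02 (SE) did not pass (adjusted p = 0.176). Ndufb2 was at 1.39, 1.56 and 1.70 FPKM and at 1.42, 1.67 and 1.67 FPKM. At that level the mean differed by 2.37%, well within an SD of 0.155 FPKM. The ND4 module holds both nuclear calls among 5 members, and its other 3, Ndufb5, Ndufb6 and Ndufb11, differed by -0.00, 0.03 and 0.05.

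The 8 Nduf assembly factors were expressed at a median of 5.70 FPKM (3.49 to 9.65), below the medians of all 6 subunit modules (14.8 to 29.0 FPKM). None was called, 4 means were higher and 4 lower, and the median difference was -0.01. Ndufaf4, which acts early in building the peripheral arm, was at 4.25, 4.84 and 4.33 FPKM at 0 nM and at 5.12, 5.15 and 4.87 FPKM at 100 nM. Every 100 nM library was above every 0 nM library, and the difference of 0.14 ± 0.05 (SE) did not pass (limma adjusted p = 0.179). Ndufaf8, the partner of the arginine hydroxylase Ndufaf5, was at 7.68, 8.81 and 9.37 FPKM and at 8.15, 7.10 and 6.85 FPKM, with overlap (difference -0.20 ± 0.08 SE, adjusted p = 0.239). Ndufaf5 itself differed by -0.14 ± 0.08 (SE, adjusted p = 0.339). Ndufaf2, a chaperone that sits in the place of Ndufa12, was at 3.62, 3.37 and 3.56 FPKM against 3.62, 3.64 and 3.11 FPKM.

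Ndufa4 carries a complex I name but is a subunit of complex IV. It was at 70.6, 72.9 and 67.8 FPKM at 0 nM and at 66.0, 66.4 and 66.0 FPKM at 100 nM. The groups did not overlap, and the difference of -0.09 ± 0.03 (SE) did not pass (limma adjusted p = 0.153). Ndufa12 shared 20.7% of its 31-base words with other genes, and the processed pseudogene Gm15920, identical at 99.5% of 402 positions, was listed far above it, at 59.8 and 61.7 FPKM against 8.25 and 8.70 FPKM. The level of Ndufa12 is therefore uncertain.

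Genes outside the rule that build or control the complex also gave 0 calls, against 4.15% of all genes tested. Lists this short can hold 0 calls at that share, so the absence of calls does not set them apart. Of 12 tested assembly factors with other names, 6 means were higher and 6 lower, with a median of -0.00. The smallest adjusted p was that of Dmac2, 5.33 ± 0.124 against 4.76 ± 0.13 FPKM (SD, n = 3; limma adjusted p = 0.0929). Of 31 genes of mitochondrial transcription and RNA handling, 17 means were higher and 14 lower, with a median of 0.02. Polrmt, the mitochondrial RNA polymerase, was at 7.07, 6.92 and 7.05 FPKM at 0 nM and at 7.79, 7.90 and 7.59 FPKM at 100 nM, without overlap (adjusted p = 0.0680). Tfam, which packages and activates mitochondrial DNA, was at 10.6 ± 0.725 and 10.9 ± 0.212 FPKM (SD, n = 3). Among 8 tested nuclear regulators the median was 0.00. Gabpa, the DNA-binding subunit of NRF-2, was at 14.1, 13.9 and 13.3 FPKM and at 12.7, 12.3 and 12.0 FPKM, without overlap (adjusted p = 0.0654). Nrf1 was at 4.74 ± 0.144 and 4.69 ± 0.0404 FPKM (SD, n = 3). Dmac2, Polrmt, Tfam, Gabpa and Nrf1 were named after their values were seen. Separate dose ranges were found in 33.3% of these assembly factors, 22.6% of the transcription and RNA genes and 37.5% of the regulators. Over all genes tested the share was 26.9%. Of 41 nuclear genes of complexes II to V, 0 rose and 1 fell, with a median difference of -0.01.

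RefSeq promoter windows (GRCm38.p6, 250 bases before to 50 after the start) were at hand for 40 of the 45 nuclear members. They were searched on both strands for 3 short motifs of factors known to act on respiratory genes. A gene with several windows was counted once, if any of them matched. GCATGCG, a core of NRF1 sites, was in 5 (12.5%), against 4.0% of all 27025 genes with a window and 8.0% of the expressed protein-coding ones. CCGGAAG, an ETS core, was in 6 (15.0%), against 9.9% and 22.6%. AAGATGG, a YY1 core, was in 8 (20.0%), against 7.3% and 8.9%. CCGGAAG and AAGATGG can share the letters AAG, which they did in none of these windows. Those of Ndufb10 and Ndufb4 held none of the 3 motifs.

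All 8 AAGATGG matches read in the direction of the gene and lay after the start. There, 1.5% of all genes with a window and 3.3% of the expressed protein-coding ones held one in that direction. In 7 of the 8, all but Ndufaf8, the ATG inside the motif is the annotated start codon. The matches are shown with up to 9 bases on either side, the motif in capitals, because they share strand, side of the start and, in most, the start codon; the position of the other motifs was not compared.
Ndufa3, chr7:3617387-3617410, plus strand: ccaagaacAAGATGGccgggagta
Ndufa9, chr6:126849100-126849123, minus strand: tgtgggagAAGATGGcggccgccg
Ndufaf8, chr11:120098936-120098959, plus strand: cagggcccAAGATGGcggcgccct
Ndufb8, chr19:44555393-44555412, minus strand: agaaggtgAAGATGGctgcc
Ndufc1, chr3:51408918-51408941, minus strand: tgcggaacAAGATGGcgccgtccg
Ndufs4, chr13:114388045-114388067, minus strand: cctacaggAAGATGGcggcggtc
Ndufs6, chr13:73328434-73328457, minus strand: tcaccggcAAGATGGcggcggtgc
Ndufs7, chr10:80249465-80249488, plus strand: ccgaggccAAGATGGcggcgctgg
A match is a run of letters and not a shown binding site. The 8 genes did not move one way: 5 had a higher and 3 a lower mean at 100 nM, from -0.20 for Ndufaf8 to 0.08 for Ndufa9, and 0 were called. Yy1 itself was at 24.9 ± 0.416 and 26.3 ± 0.944 FPKM (SD, n = 3; limma adjusted p = 0.243).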

How the data were processed

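Per the labels' protocols, poly(A) RNA was made into dUTP-marked libraries and sequenced in pairs. The authors deposited FPKM per gene for each library, with 2 decimals. StringTie, HISAT2 and fastp are named in the submitters' processing notes, with mm10 and also GRCh38. Versions, what GRCh38 was for and use of strand are not given there. Of 28418 identifiers, 28350 are in GENCODE M21 and 25640 have its coordinates (GRCm38).

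Low values were not whole multiples of 1 read (22.7% to 24.0% lay within 0.1 of one), so counts were not recovered and depth is unknown. All genes averaging 1 FPKM or more were tested with limma-trend (limma 3.58.1, R 4.3.3) on log2(FPKM + 1), two-sided, with Benjamini-Hochberg adjustment over all 11741 genes. This scale understates changes of low genes. The fit was tested on simulated data. Python 3.11.15 did the rest.

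Named by rule were all mt-Nd members, called members, the 7 nuclear core subunits, the 4 highest and 4 lowest nuclear differences, the 2 highest and 2 lowest nuclear levels, and genes beside the level limit. For 1 nuclear core subunit, counted in the totals, no values are reported here. Others were named after their values were seen. Members and lists were chosen with earlier results of these data known. Adding annotated copies was chosen after seeing the data.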

Additional observations from a re-analysis of the deposited data

How the results depend on the processing

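The 3 called members, mt-Nd1, Ndufb10 and Ndufb4, kept their direction in every alternative run, but the call was lost in 10 of 18 alternatives for mt-Nd1 (adjusted p 0.0207 to 0.386), 11 of 18 for Ndufb10 (0.0340 to 0.193) and 9 of 19 for Ndufb4 (0.00993 to 0.146), by limma. Of 23 other named members tested, 22 were called in no alternative; the exception was mt-Nd3. Main counts were 487 genes, 2 nuclear members and 1 mt-Nd member. They were 204, 0 and 0 with no filter on the mean, where all genes above 0 are tested, 294, 1 and 0 without the trend, and 74, 0 and 0 with replicate 3 of both groups left out, where the nuclear median difference was -0.0095. With scaling to the total without mitochondrial genes 1 nuclear member was called. Without each library in turn the counts were 122 to 289 genes, 0 nuclear members and 0 to 1 mt-Nd members, the nuclear median was -0.0094 to 0.0169, the mt-Nd median -0.0487 to 0.0104 and the ratio of mt-Nd to nuclear sums 0.933 to 0.967. Both medians change sign within these ranges. With the replicate number as a block (replicate block) the counts were 58, 0 and 0. The labels do not say that a number marks a shared culture or day, so the numbers were not taken to pair the libraries. Same-numbered libraries also did not deviate together (correlations -0.0327, -0.0529 and 0.00653). Where a setting tests more genes or uses fewer libraries the lower count follows in part from its construction; otherwise the cause was not tested. Under the 3 other scalings the median over all genes was -0.0024 to 0.0056. Arms of 2 libraries are assumed to vary like the rest. Depth being unknown, precision rests on 3 libraries a group.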

Other observations

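Some further values concern where the members lie and which libraries they were highest in. The stretches given here were picked from those around the 45 nuclear members after their values were seen. Of all genes tested, 2.46% were called lower and 1.69% higher at 100 nM. Ndufa2 lies on chromosome 18 among 20 tested protein-coding genes within 1 Mb, of which 18 had a lower mean at 100 nM and 5 were called lower, with a median difference of -0.14. The difference of Ndufa2 itself was -0.15 ± 0.06 (SE, limma adjusted p = 0.243). Ndufaf3, an assembly factor gene, lies among 45 such genes, of which 42 had a higher mean and 5 were called higher, with a median of 0.09; its own difference was 0.05 ± 0.06 (SE, adjusted p = 0.684). Around Ndufs7, 61 of 71 neighbours had a higher mean, with 1 called and a median of 0.06, while Ndufs7 differed by 0.01 ± 0.04 (SE). Neighbouring genes are not independent of each other, and no test of these stretches was made here.

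Of the 7 mt-Nd genes, 5 were highest in replicate 2 at 0 nM and the other two in replicate 1 at 100 nM. Of the 45 nuclear members, 15 were highest in replicate 2 at 100 nM, against 4 to 8 in each of the other libraries. The mitochondrial genes, RNAs of the ribosome included, made up 10.4%, 10.8% and 10.5% of all FPKM at 0 nM and 10.2%, 9.84% and 10.1% at 100 nM. Near copies of mitochondrial genes on chromosome 1 made up a further 3.54% to 3.90%. This sum holds Gm28438, Gm10222 and Gm28439, and also Gm10925, Gm28437, Gm29216 and Gm28661, which were not main partners of any mt-Nd gene. Which mitochondrial genes these further copies resemble was not tested.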
